A study of Mus musculus with 19 samples.

Results

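The 10 genes described here encode transcriptional regulators whose human counterparts are linked to autism and intellectual disability: Mef2c, Myt1l, Tbr1, Foxp1, Bcl11a, Adnp, Pogz, Auts2, Med13l and Tcf4. They were selected by symbol, and all 10 were found among the 14459 genes of the deposited tables. Their ribosome footprints (RPF, the mRNA fragments protected by ribosomes) and cytoplasmic RNA were measured in acute brain slices of Fmr1 knockout (KO) mice and of wild-type (WT) littermates, all male, 28 to 35 days old and on a C57BL/6 background. The labels describe a KO line backcrossed to that background and name no driver or conditional allele. Each replicate pooled 8 to 10 slices of 400 µm from 6 to 8 mice of 1 genotype. The slices recovered at 30 °C for 3 to 4 h and then received cycloheximide at 100 µg/ml, in both genotypes. Per the labels the tissue was hippocampal with CA3 removed, while the source name also mentions cortex. The tables hold 3 KO and 4 WT libraries for footprints and 3 KO and 4 WT libraries for RNA, so n is 3 for KO and 4 for WT throughout. The labels list 19 samples, and the 5 without a column in the tables are not analysed here.

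Transcriptional regulators of this kind set which genes a neuron expresses, either by binding DNA at short sequence motifs or by joining complexes that modify chromatin or contact RNA polymerase. Mutation of 1 copy is enough to cause disease for most of them, so their dose matters. FMRP binds the mRNAs of many neuronal genes and ribosomes on them, and its loss causes fragile X syndrome. The footprint comparison asks how much ribosome-bound mRNA of each gene the slices hold without FMRP, the RNA comparison how much mRNA, and the ratio of the assays how many footprints each mRNA carries.

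The labels were checked on Fmr1, which had 4.81 ± 0.222 TPM of footprints in KO and 44.4 ± 1.53 TPM in WT (mean ± SD). TPM is a level scaled by a length for each gene and by library size. Library totals were 15571000 to 22707700 estimated counts for footprints and 4965840 to 9963720 for RNA. The deposited values have a floor near 1 TPM, and at mean counts of 20 to 50 their variance was 0.158 to 0.406 times the mean, below counting noise. P-values from such values may be too small, and no counting intervals are given. Because the replicates are pools of slices, p-values reflect only the spread between pools that the deposited values retain. No gene of the tables is at 0, so a marker's presence in them does not test the tissue label.

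The regulators differed widely in level. In footprints the order was the same in KO and WT: Tcf4 was highest, followed by Mef2c, Bcl11a, Tbr1, Adnp, Myt1l, Foxp1, Auts2, Pogz and Med13l. Tcf4, a basic helix-loop-helix E protein, had 232 ± 8.67 TPM in KO and 225 ± 4.51 TPM in WT. Med13l, a subunit of the Mediator kinase module, had 5.78 ± 0.113 TPM in KO and 6.62 ± 0.159 TPM in WT. The highest and lowest of the 10 were thus 40.0-fold apart in KO footprints and 34.0-fold in WT footprints. In RNA they were only 7.98-fold apart in KO and 6.78-fold in WT, from Tcf4 (136 TPM in KO, 137 TPM in WT) down to Auts2 (17.1 TPM in KO, 20.1 TPM in WT). Neighbours in the footprint order were separated, with no shared range, except Adnp and Myt1l in both genotypes and, in KO, Foxp1 with Auts2 and Auts2 with Pogz. In RNA, Tcf4 overlapped Bcl11a in both genotypes. Adnp, Myt1l and Tbr1 lay at 39.4 to 39.7 TPM in WT RNA and overlapped one another in KO RNA too, at 40.5 to 43.5 TPM.

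**Figure D1:**
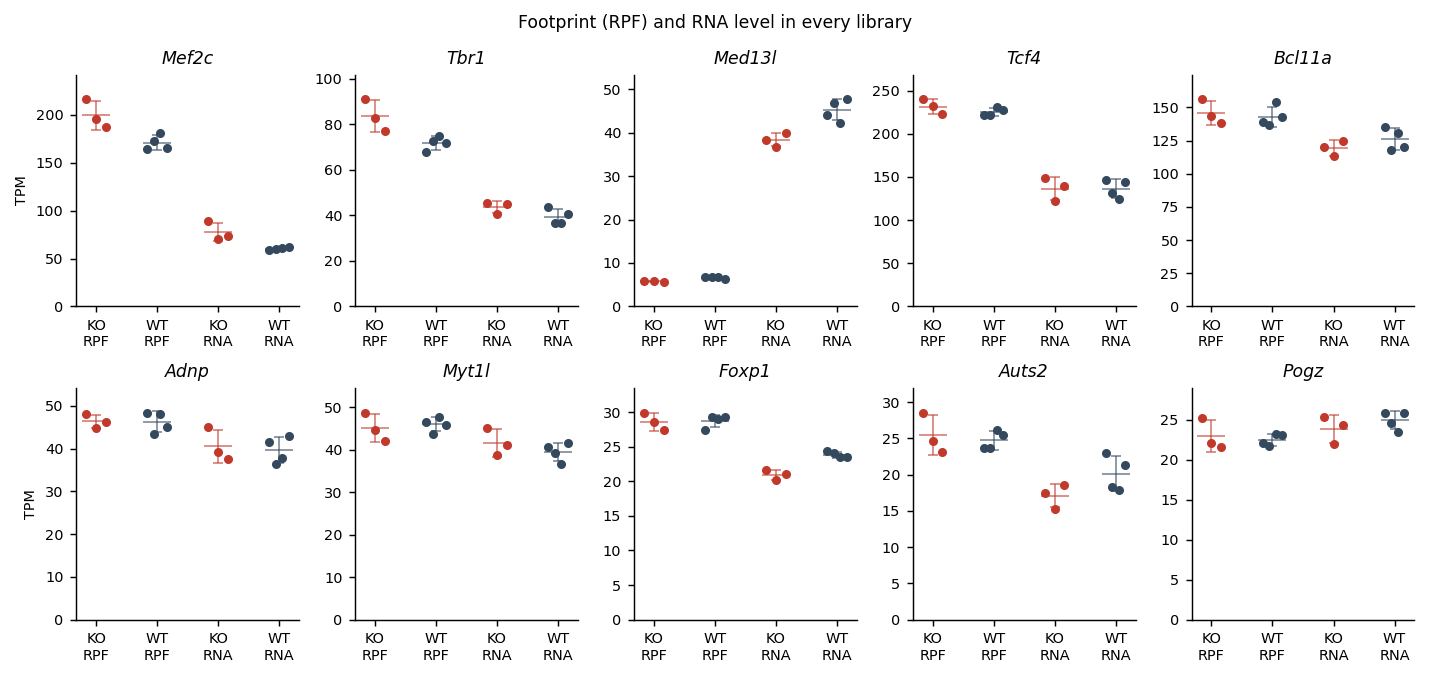
Footprint (RPF) and RNA level in TPM (vertical axis, from 0) of each of the 10 regulators in every library of KO (red) and WT (dark blue). Points are libraries, bars mean ± SD (n = 3 KO, 4 WT). Mef2c and Tbr1 footprints lie higher and Med13l footprints lower in every KO library than in any WT library.

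In footprints, 3 of the 10 regulators changed: Mef2c and Tbr1 rose and Med13l fell in KO slices. The changes were small, between 13% and 16% of the WT level. Over all 14438 genes tested, 18.5% were called at an adjusted p under 0.05 (edgeR quasi-likelihood test, Benjamini-Hochberg), 8.15% higher and 10.4% lower. The count of 3 of 10 is not read as particular to the regulators. Their median log2 fold change was 0.02, against -0.0001 for all genes tested. KO footprint libraries did not overlap WT libraries for 3 regulators, and for 30.7% of all genes.

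Mef2c (GRCm38 chr13:83504017-83667079) encodes a MADS-box factor that governs activity-dependent synapse number and is also made in microglia. Its footprints were 216, 196 and 187 TPM in the KO libraries, against 165, 173, 181 and 166 TPM in the WT libraries. All KO libraries were above all WT libraries, KO library 1 being the highest. The log2 fold change was 0.21 ± 0.05 (SE; 16% higher in KO, adjusted p = 0.00865, edgeR). Without KO library 1 it was 0.17 (adjusted p = 0.0231).

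Tbr1 (chr2:61802863-61814114) encodes a T-box factor of glutamatergic projection neurons, known for specifying deep-layer cortical neurons. Its footprints were 90.8, 82.5 and 76.9 TPM in the KO libraries, against 67.8, 72.8, 74.7 and 71.5 TPM in the WT libraries. Here too the groups did not overlap, and KO library 1 was the highest. The log2 fold change was 0.21 ± 0.05 (15.7% higher in KO, adjusted p = 0.0124, edgeR), and 0.16 without KO library 1 (adjusted p = 0.0355).

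Med13l (chr5:118560330-118765438) encodes a subunit that links the kinase module to core Mediator, the complex between transcription factors and RNA polymerase. Its footprints were 5.91, 5.74 and 5.70 TPM in the KO libraries, against 6.74, 6.65, 6.70 and 6.39 TPM in the WT libraries. Every KO library was below every WT library. The log2 fold change was -0.20 ± 0.04 (adjusted p = 0.00462, edgeR), a level that fell by 13%. The length behind the Med13l TPM is 4.87 times that of the median gene, as the ratio of count to TPM shows. All lengths given here are of this kind and may not be those of whole transcripts. Among the 501 genes at least 4 times as long as the median, 24.6% were lower in KO footprints, 1.4% were higher, and the median log2 fold change was -0.07. With each library's length trend removed, Med13l had a log2 fold change of -0.14 (adjusted p = 0.0284). Removing the trend left Mef2c (0.21) and Tbr1 (0.21) at almost the same values, with adjusted p of 0.00699 and 0.00689.

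The start-site regions of the 3 changed genes are shown because these genes carry the footprint result. They run from 250 bases before to 50 bases after a RefSeq start (GRCm38.p6, plus strand). RefSeq regions were found for 8 of the 10 regulators, 16 regions in all. Capitals mark motifs that members of the group bind: CANNTG (E-box, bound by TCF4 as part of a dimer), AAAGTT (MYT1L) and TGACCA (BCL11A). Both strands were searched, also for the MEF2 site, TCACACC (T-box) and TGTTTAC (forkhead), and no marked motifs overlapped. Mef2c has 3 listed starts, of which the most upstream is printed.
Mef2c, chr13:83503784-83504083: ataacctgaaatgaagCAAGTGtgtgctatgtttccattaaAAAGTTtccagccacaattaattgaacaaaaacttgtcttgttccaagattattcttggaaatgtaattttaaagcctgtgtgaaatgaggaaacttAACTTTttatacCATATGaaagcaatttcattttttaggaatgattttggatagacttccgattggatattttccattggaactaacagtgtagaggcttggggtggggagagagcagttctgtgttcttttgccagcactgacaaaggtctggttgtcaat
Tbr1, chr2:61804203-61804502: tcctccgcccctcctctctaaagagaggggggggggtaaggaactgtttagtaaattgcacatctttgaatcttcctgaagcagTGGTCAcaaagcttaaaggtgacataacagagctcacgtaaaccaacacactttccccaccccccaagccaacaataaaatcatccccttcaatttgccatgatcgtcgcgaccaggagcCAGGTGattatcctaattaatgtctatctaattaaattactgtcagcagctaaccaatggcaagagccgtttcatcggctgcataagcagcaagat
Med13l, chr5:118560469-118560768: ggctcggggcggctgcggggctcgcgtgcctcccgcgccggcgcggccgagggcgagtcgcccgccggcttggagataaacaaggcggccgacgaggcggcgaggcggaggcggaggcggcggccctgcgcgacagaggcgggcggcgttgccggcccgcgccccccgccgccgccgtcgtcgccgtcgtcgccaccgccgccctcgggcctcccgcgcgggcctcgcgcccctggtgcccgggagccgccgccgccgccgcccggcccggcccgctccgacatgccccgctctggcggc
The printed Mef2c region holds 2 E-boxes, 234 and 100 bases before the start by their first base, and 2 AAAGTT matches, 209 and 112 bases before it. The Tbr1 region holds 1 E-box and 1 TGACCA match, 46 and 166 bases before the start. The Med13l region holds none of the 6 motifs. It is 84.7% G and C, more than 99.8% of the 32851 RefSeq regions of the same length, whose median is 52.7%, against 35.7% in the Mef2c region and 46.0% in the Tbr1 region. E-boxes occur in 72.3% of all such regions, AAAGTT in 14.1% and TGACCA in 13.6%. The MEF2 site occurs in 3.69% of all regions and in 0 of the 16 of the regulators. These matches describe letters only.

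The other 7 regulators did not pass in footprints, and their libraries overlapped between the genotypes. Tcf4 had 240, 232 and 223 TPM in KO, against 222, 221, 231 and 227 TPM in WT, a log2 fold change of 0.03 ± 0.03 (adjusted p = 0.587, edgeR). Bcl11a, a zinc-finger repressor that also joins the BAF remodelling complex, had 146 ± 9.17 TPM in KO and 143 ± 7.56 TPM in WT. Adnp, a homeodomain zinc-finger protein of heterochromatin complexes, had 46.4 ± 1.59 TPM in KO and 46.3 ± 2.47 TPM in WT, the smallest difference of the group (log2 fold change 0.00 ± 0.04). Myt1l, a zinc-finger factor that represses non-neuronal genes, had 45.2 ± 3.35 TPM in KO and 46.0 ± 1.66 TPM in WT. Foxp1, a forkhead repressor, had 28.6 ± 1.29 TPM in KO and 28.8 ± 0.883 TPM in WT. Auts2, a partner of a Polycomb complex that activates transcription, had 25.5 ± 2.77 TPM in KO and 24.7 ± 1.30 TPM in WT. Pogz, a zinc-finger protein bound to heterochromatin protein HP1, had 22.97 ± 1.99 TPM in KO and 22.5 ± 0.741 TPM in WT. The 95% intervals of these 7 log2 fold changes lay within -0.12 and 0.15, the lower end being that of Myt1l and the upper that of Auts2. In KO, library 1 was the highest of the 3 footprint libraries for all 10 regulators, against 37.3% of all genes, after scaling by TMM.

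**Figure D2:**
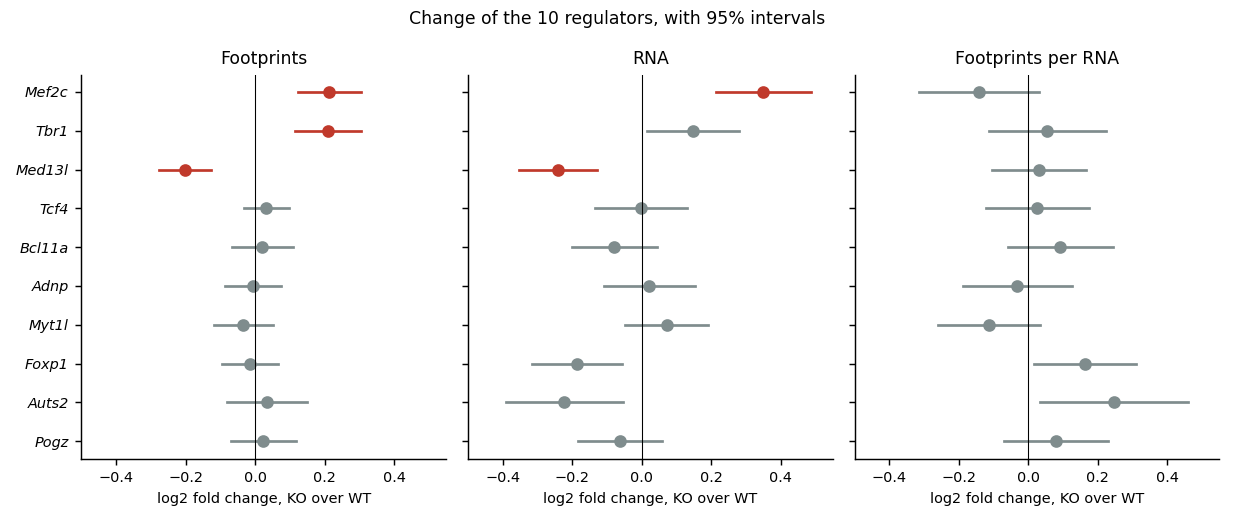
Log2 fold change of KO over WT (horizontal axis) for each regulator in footprints, RNA and footprints per RNA, with 95% intervals. Red marks an adjusted p under 0.05 (edgeR): Mef2c, Tbr1 and Med13l in footprints, Mef2c and Med13l in RNA, and no gene in footprints per RNA.

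In RNA, 2 of the 10 regulators changed, Mef2c upward and Med13l downward, against 4.89% of the 13877 genes tested (2.11% higher and 2.77% lower). The median of the regulators was -0.03 and that of all genes -0.005. In bulk slices, fewer cells of a type and less RNA per cell cannot be told apart. Mef2c RNA was 88.7, 70.8 and 73.3 TPM in the KO libraries, against 58.7, 59.9, 60.8 and 62.0 TPM in the WT libraries. The groups did not overlap, and the KO libraries spread more widely than the WT libraries (SD 9.73 TPM in KO, 1.40 TPM in WT). The log2 fold change was 0.35 ± 0.07 (27.5% higher in KO, adjusted p = 0.0137, edgeR), and 0.27 without KO library 1 (adjusted p = 0.0416).

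Med13l RNA was 38.4, 36.8 and 39.8 TPM in the KO libraries, against 44.2, 46.9, 42.4 and 47.7 TPM in the WT libraries. Every KO library was again below every WT library. The log2 fold change was -0.24 ± 0.06 (adjusted p = 0.0273, edgeR), a level that fell by 15.3%. This call did not hold when most of the single libraries were left out. The adjusted p (edgeR) was 0.0784 without KO library 1 and 0.0960 without KO library 2. It was 0.0504 without WT library 1, 0.0697 without WT library 2 and 0.0960 without WT library 4. The call held without KO library 3 (0.0156) and without WT library 3 (0.0346). The log2 fold change stayed between -0.27 and -0.20 in all 16 alternatives.

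Tbr1 RNA was 45.2, 40.7 and 44.7 TPM in the KO libraries, against 43.5, 36.6, 36.8 and 40.7 TPM in the WT libraries. These ranges overlapped, and the log2 fold change of 0.15 ± 0.07 did not pass (unadjusted p = 0.0429, adjusted p = 0.225, edgeR). Foxp1 RNA was 21.6, 20.1 and 21.0 TPM in the KO libraries, against 24.3, 24.1, 23.5 and 23.4 TPM in the WT libraries. The groups did not overlap, but the log2 fold change of -0.19 ± 0.07 did not pass (adjusted p = 0.116, edgeR). Auts2 RNA was 17.5, 15.3 and 18.5 TPM in the KO libraries, against 22.95, 18.3, 17.9 and 21.4 TPM in the WT libraries, a log2 fold change of -0.22 ± 0.09 (adjusted p = 0.148, edgeR). With Mef2c and Med13l these 3 genes make 5 of 10 regulators at an unadjusted p under 0.05, against 20.5% of all genes. The libraries did not overlap for 3 regulators in RNA, and for 19.1% of all genes. Myt1l, Bcl11a, Adnp, Pogz and Tcf4 had RNA log2 fold changes between -0.08 and 0.07, with adjusted p of 0.536 to 0.993.

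**Figure D3:**
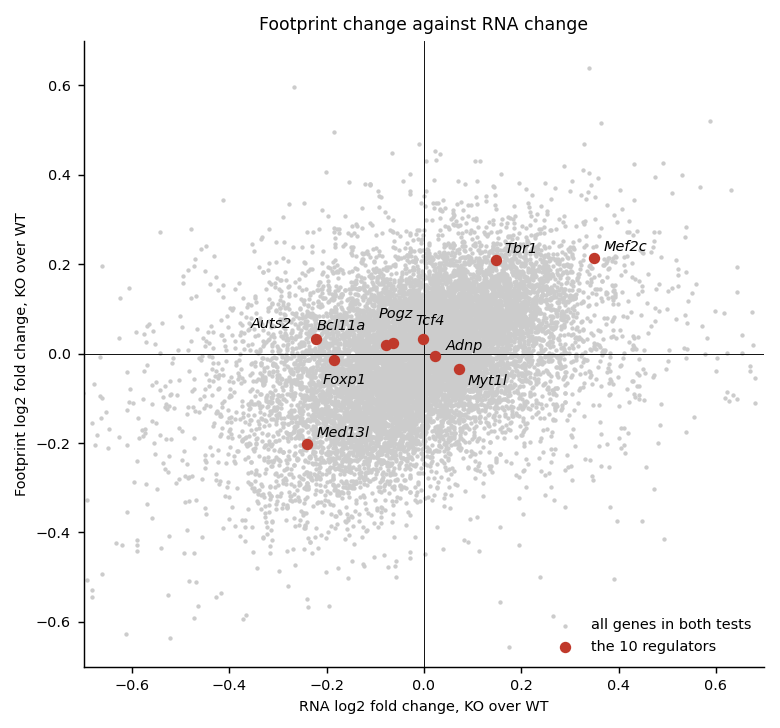
Footprint log2 fold change (vertical axis) against RNA log2 fold change (horizontal axis), KO over WT, for the 10 regulators (red, named) and the 13875 genes of both tests (grey, of which 44 lie beyond the axes at 0.7). Mef2c and Tbr1 lie upper right and Med13l lower left, while Auts2 and Foxp1 lie left of the vertical zero line and close to the horizontal one.

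Footprints per RNA (translational efficiency) changed for none of the 10 regulators between KO and WT in edgeR's test of the interaction of assay and genotype. Only 5 of 14435 genes, 0.0346%, were called in that test (0.0139% higher and 0.0208% lower), Fmr1 among them. DESeq2 and limma also called 0 of the 10. At an unadjusted p under 0.05 there were 2, Auts2 and Foxp1, against 10.8% of all genes. Auts2 had ratios of footprint to RNA (both as CPM, counts scaled to library size) of 2.01, 1.95 and 1.55 in KO, against 1.29, 1.58, 1.77 and 1.49 in WT. The ranges overlapped, and the log2 difference was 0.25 ± 0.11 (95% interval 0.03 to 0.46, adjusted p = 0.402, edgeR). Foxp1 had ratios of 1.702, 1.72 and 1.62 in KO, against 1.41, 1.48, 1.50 and 1.55 in WT. These did not overlap, as for 14.1% of all genes, and the log2 difference was 0.16 ± 0.07 (95% interval 0.02 to 0.31, adjusted p = 0.438, edgeR). For Mef2c, whose RNA rose by 0.35 and whose footprints rose by 0.21, the ratio was 3.00, 3.35 and 3.17 in KO, against 3.51, 3.52, 3.61 and 3.33 in WT. Its log2 difference of -0.14 ± 0.09 did not pass (95% interval -0.32 to 0.03, adjusted p = 0.591, edgeR). Med13l, with footprints and RNA both lower, had a log2 difference of 0.03 ± 0.07 (adjusted p = 0.955, edgeR), and Tbr1, with footprints higher, 0.05 ± 0.09 (adjusted p = 0.913, edgeR). The 95% interval was -0.11 to 0.17 for Med13l and -0.11 to 0.22 for Tbr1.

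The ratio itself set Med13l far apart from the other regulators in both genotypes. The median gene had a ratio of 0.967 in KO and 0.967 in WT. Mef2c was highest at 3.17 ± 0.175 in KO and 3.49 ± 0.119 in WT, above 95.2% of genes in KO and 95.8% in WT. Tbr1 (2.35 ± 0.191 in KO, 2.26 ± 0.237 in WT) and Tcf4 (2.095 ± 0.187 in KO, 2.04 ± 0.154 in WT) followed. Auts2, Foxp1, Adnp, Myt1l and Bcl11a lay between 1.33 and 1.84 in KO and between 1.40 and 1.53 in WT, and neighbours in that WT order overlapped. Pogz was at 1.18 ± 0.0708 in KO and 1.11 ± 0.0597 in WT. Med13l had 0.190, 0.189 and 0.178 in KO, against 0.191, 0.173, 0.192 and 0.167 in WT, above only 1.45% of genes in KO and 1.52% in WT. No length correction was made in this ratio. The lengths behind the deposited values may leave out untranslated parts of transcripts, so whether such parts enter the ratio is not known here.

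**Figure D4:**
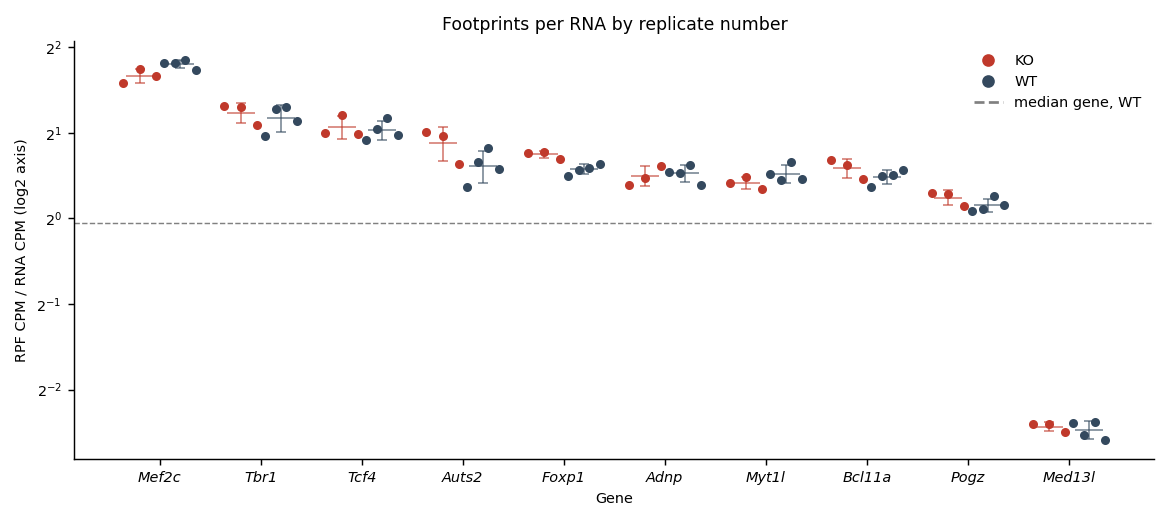
Ratio of footprint CPM to RNA CPM (vertical axis, log2 scale) for each regulator by replicate number, KO (red) left of WT (dark blue), with mean ± SD (n = 3 KO, 4 WT). The dashed line is the median gene in WT. Of the 10 regulators, 9 lie above it and Med13l lies far below, at 0.185 in KO and 0.181 in WT.

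Low ratios were common among the other subunits of the Mediator kinase module, which phosphorylates and restrains core Mediator. Med12l, a paralog of the kinase activator, had a ratio of 0.277 ± 0.0151 in KO and 0.294 ± 0.0226 in WT. The kinase gene Cdk8 had 0.336 ± 0.0475 in KO and 0.267 ± 0.0287 in WT, and its paralog Cdk19 0.534 ± 0.0543 in KO and 0.464 ± 0.0503 in WT. Med13, the paralog of Med13l, had 0.428 ± 0.0362 in KO and 0.461 ± 0.0160 in WT. Med12 was at 0.610 ± 0.0129 in KO and 0.648 ± 0.0353 in WT, and only the cyclin gene Ccnc lay above the median gene, at 1.53 in KO and 1.45 in WT. In KO footprints 2 of these 6 genes fell and 0 rose, against 10.4% of all genes lower and 24.6% of those at least 4 times as long as the median, as both that fell are. Med12l had 4.55 ± 0.243 TPM in KO and 5.24 ± 0.138 TPM in WT (log2 fold change -0.21 ± 0.04, adjusted p = 0.00660, edgeR). Med13 had 10.4 ± 0.542 TPM in KO and 11.6 ± 0.389 TPM in WT (-0.17 ± 0.04, adjusted p = 0.0234, edgeR). Both are as long as Med13l, at 4.82 and 4.79 times the median gene. With the length trend removed Med12l had -0.14 (adjusted p = 0.0253) and Med13 -0.10 (adjusted p = 0.118). Med12, which is 4.84 times the median in length, was at -0.02 ± 0.06 (adjusted p = 0.896), Cdk8 at 0.21 ± 0.05 (adjusted p = 0.0580) and Cdk19 at 0.13 ± 0.05 (adjusted p = 0.122). None of the 6 passed in RNA (edgeR), and 1 had an unadjusted p under 0.05. Of 26 core Mediator genes, 3 rose and 2 fell in footprints, among them Med15 (0.22 ± 0.05), Med25 (0.17 ± 0.04), Med28 (-0.21 ± 0.04) and Med23 (-0.18 ± 0.04).

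Relatives, partners and targets of the other regulators were read from lists written from general knowledge, which share some genes. Their counts stand beside 8.15% of all genes higher and 10.4% lower in footprints, and none is read as particular to its list. Of 13 measured genes of the MEF2 family, its cofactors and its targets, 3 rose and 1 fell in footprints (median -0.06). The family members Mef2a (109 ± 2.89 TPM in KO, 97.1 ± 3.63 TPM in WT; log2 fold change 0.15 ± 0.04, adjusted p = 0.0209, edgeR) and Mef2d (100.2 ± 3.54 TPM in KO, 90.8 ± 2.69 TPM in WT; 0.13 ± 0.04, adjusted p = 0.0240, edgeR) rose. Among targets known from neurons, Pcdh10, a protocadherin through which MEF2 and FMRP act on synapse loss, fell (-0.16 ± 0.04, adjusted p = 0.0178). Of 9 relatives, partners and targets of Tbr1, 1 rose and 2 fell (median -0.05). Cask, which encodes a scaffold that binds TBR1, rose (0.16 ± 0.03, adjusted p = 0.00692), and the TBR1 targets Reln, a secreted guide of neuronal migration (-0.21 ± 0.04, adjusted p = 0.00369), and Grin2b, an NMDA receptor subunit (-0.21 ± 0.03, adjusted p = 0.00203), fell. Reln is 7.66 times as long as the median gene, and with the length trend removed it had -0.13 (adjusted p = 0.0402, edgeR). Grin2b is 3.26 times as long, and had -0.17 with the trend removed (adjusted p = 0.00452, edgeR). Reln is also among the 16 interneuron markers given below, of which 6 fell and 1 rose.

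The counts of these lists too stand beside 8.15% of all genes higher and 10.4% lower in footprints. Of 8 FOXP relatives and partners, 4 rose and 0 fell (median 0.09). Foxp2 had 5.56 ± 0.338 TPM in KO and 4.35 ± 0.651 TPM in WT (log2 fold change 0.36 ± 0.09, adjusted p = 0.0196, edgeR), and Foxp4 had 18.9 ± 0.476 TPM in KO and 16.5 ± 0.451 TPM in WT (0.19 ± 0.04, adjusted p = 0.00880, edgeR). Of 13 AUTS2 relatives and partners in its Polycomb complex, 5 rose and 0 fell (median 0.11). Fbrs, a relative of Auts2, had 13.4 ± 1.202 TPM in KO and 11.03 ± 0.867 TPM in WT (0.27 ± 0.07, adjusted p = 0.0162, edgeR), and the ubiquitin ligase gene Ring1 had 20.0 ± 1.36 TPM in KO and 16.8 ± 0.890 TPM in WT (0.25 ± 0.06, adjusted p = 0.0110, edgeR). Of 11 BCL11A relatives and BAF subunits 3 rose and 0 fell, with Smarcb1 at 0.21 ± 0.05 and the neuronal subunit gene Actl6b at 0.20 ± 0.04. Of 8 partners of ADNP and POGZ 2 rose and 0 fell, Trim28 (0.18 ± 0.04) and Adnp2 (0.16 ± 0.04), and of 8 MYT1 relatives and corepressors 2 rose and 0 fell, the deacetylase genes Hdac1 (0.17 ± 0.05) and Hdac2 (0.12 ± 0.04). Hdac2 did not pass with the length trend removed (0.11, adjusted p = 0.0545). None of 10 E proteins, partners and ID inhibitors passed in footprints (edgeR), and 4 had an unadjusted p under 0.05. In RNA, Chd4 (0.29 ± 0.07), Sin3b (0.23 ± 0.05), Smarcb1 (0.21 ± 0.06) and Trim28 (0.20 ± 0.06) of these lists rose, and Med25 of core Mediator fell (-0.26 ± 0.07).

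A broader list of other autism-linked transcription and chromatin regulators had 85 measured genes. Of these, 10 rose and 8 fell in footprints, against 8.15% of all genes higher and 10.4% lower. The list had a median of 0.00 (-0.001), which matches that of all genes. Its smallest p-values belonged to Dnmt3a, a DNA methyltransferase (18.3 ± 0.753 TPM in KO, 14.8 ± 0.628 TPM in WT; 0.30 ± 0.04, adjusted p = 0.00132, edgeR), the ciliary and neuronal factor Rfx3 (-0.20 ± 0.03, adjusted p = 0.00217), the histone reader Zmynd11 (0.17 ± 0.03, adjusted p = 0.00618) and the zinc-finger gene Hivep3 (-0.23 ± 0.05, adjusted p = 0.00789). In RNA 1 of the 85 rose and 3 fell, against 2.11% of all genes higher and 2.77% lower.

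**Figure D5:**
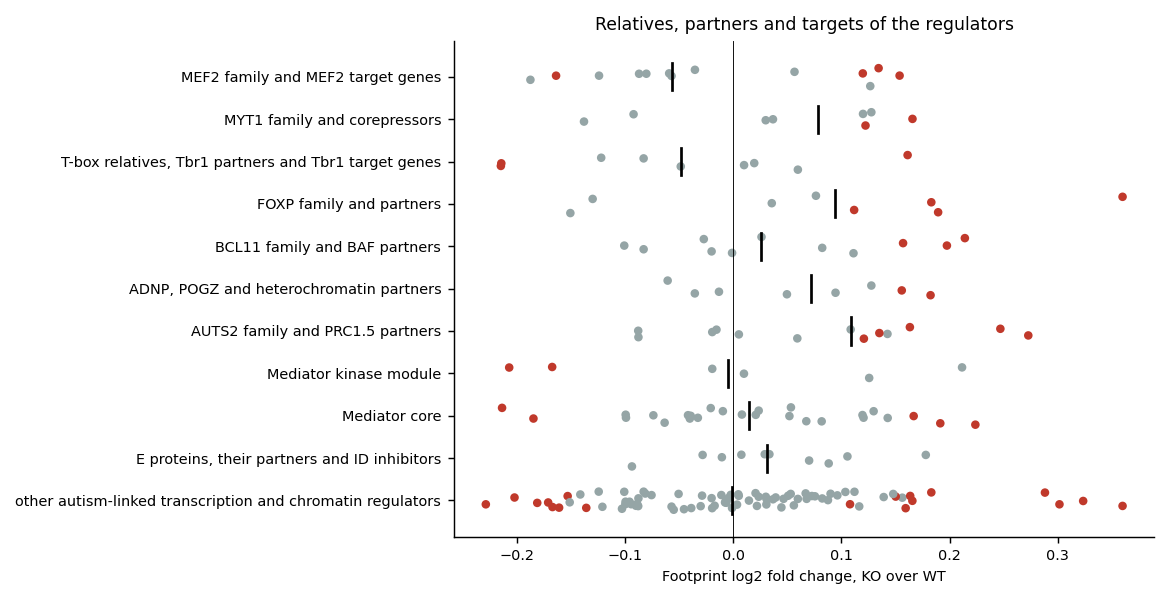
Footprint log2 fold change of KO over WT (horizontal axis) for each measured gene of the lists of relatives, partners and targets. Each point is a gene, red where its adjusted p is under 0.05 (edgeR), and black bars are list medians, which run from -0.06 for the MEF2 list to 0.11 for the AUTS2 list.

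Cell type markers that moved between the genotypes stand beside these results. Over all genes, 8.15% were higher and 10.4% lower in footprints. Microglia express Mef2c, and 13 of 18 microglia markers fell and 0 rose in footprints, their summed level being 834 to 891 TPM in KO and 990 to 1022 TPM in WT (1163 to 1185 TPM in KO RNA, 1341 to 1380 TPM in WT RNA). Mef2c itself was higher in KO in both assays, and which cells its change came from was not tested. Of 14 neocortex markers 1 rose and 1 fell, with a summed level of 594 to 601 TPM in KO and 565 to 609 TPM in WT. The neocortex marker that rose was Rprm (0.37 in footprints, 0.40 in RNA) and the one that fell was Lamp5 (-0.29 in footprints). Other markers of the deep layers, where Tbr1 is known to be expressed, did not pass in footprints. With the length trend removed, footprint log2 fold changes were 0.13 for Syt6, 0.01 for Tle4, -0.06 for Fezf2 and -0.08 for Nxph4. Hs3st4 was at -0.08, Etv1 at -0.09 and Cplx3 at 0.12. RNA values in that fit were 0.37 for Syt6, -0.05 for Tle4, -0.21 for Fezf2 and -0.01 for Nxph4. Hs3st4 RNA was at -0.05, Etv1 RNA at -0.14 and Cplx3 RNA at 0.24, and none of these genes passed in RNA (edgeR). Of 10 thalamus markers 4 rose and 0 fell, at 319 to 322 TPM in KO and 287 to 317 TPM in WT. Of 7 CA1 markers 1 rose and 3 fell, at 327 to 343 TPM in KO and 360 to 367 TPM in WT. Of 10 general neuron markers 1 rose and 1 fell. Markers of meningeal fibroblasts (7 of 9 lower, 0 higher), endothelial and mural cells (6 of 14 lower, 0 higher), oligodendrocytes (7 of 12 lower, 1 higher) and interneurons (6 of 16 lower, 1 higher) also moved. The part of tissue makeup in the Mef2c, Tbr1 and Med13l results was not tested.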

How the data were processed

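Estimated counts and TPM for 14459 genes were deposited by the authors. Per the submitters' processing notes they used cutadapt 1.7.1, Trimmomatic 0.32, Bowtie2 2.1.0, TopHat2 2.0.9, SAMtools 0.0.19, bedtools and RSEM 1.2.11 with mm10. The notes used here give no gene filter and no adjustment between libraries. The deposited TPM of each library sum to 1008320 to 1014090, above what TPM scaling gives, so these values were changed after scaling. The lowest TPM was identical in replicates 1 and 2 of WT footprints (0.999959), KO RNA (0.897979) and WT RNA (0.947252). WT RNA replicates 3 and 4 also shared a lowest TPM (0.879568), while KO footprint libraries and WT footprint replicates 3 and 4 did not. Of 5 directions of spread within groups, the smallest held 3.89% of the variance in footprints and 2.27% in RNA. Whether libraries were adjusted to one another before deposit was not tested.

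Estimated counts were rounded and tested over all genes with edgeR 4.0.16 in R 4.3.3 (filterByExpr with minimum count 10, TMM, robust quasi-likelihood F-test, Benjamini-Hochberg adjustment, threshold 0.05), within each assay and, for footprints per RNA, as an assay-by-genotype interaction in 1 model of the 14 libraries, with no term for the shared lysate. Each SE was taken from the fold change and its F statistic (size divided by root F), and 95% intervals use the normal quantile. All 10 genes passed the filter in every fit. Same-numbered KO and WT libraries did not deviate together (correlations -0.441 to 0.007 in footprints and -0.343 to -0.067 in RNA), and the numbers were not taken as pairs. This check cannot exclude pairing, because an adjustment between libraries before deposit would remove shared deviations. RNA and footprints came from the same lysates per the labels, yet their same-numbered libraries correlated at -0.045 to 0.171.

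The genes, lists, tests and naming rule were chosen with earlier results of these data known. The rule names the 10 genes, Fmr1, every measured kinase module gene and, of each list, up to 4 called genes with the smallest footprint p. The neocortex markers and the genes named for RNA were chosen after their values were seen. Some genes that the rule names are not reported here. Alternatives were DESeq2 1.42.0, limma 3.58.1 on log2(TPM + 1) and log2(TPM + 0.1), upper-quartile scaling, no filter, removal of each library's length trend, a replicate block, a covariate for replicates 1 and 2 against the rest, a fit over all libraries and leaving out each library. Start-site regions are from RefSeq (GRCm38.p6).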

Additional observations from a re-analysis of the deposited data

Results flagged for a closer look

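Of 30 sets of 4 WT values (footprints, RNA and ratio of each regulator), 1 held a library far from the other 3: Foxp1 footprints were 27.5 TPM in WT library 1 and 29.0 to 29.3 TPM in the other WT libraries. Chance flags about 1 set in 20. The KO libraries were at 27.3 to 29.9 TPM.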

How the results depend on the processing

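Under the 16 alternatives for each assay (15 for footprints per RNA), 158 of 160 footprint values, 151 of 160 RNA values and all 150 values of footprints per RNA stayed on the same side of the threshold, and no called value turned its direction. The number of regulators called in footprints was 3 in the design as fixed and 3 to 3 when single libraries were left out. With the replicate block, which the pairing check can neither back nor exclude, it was 1. Mef2c (adjusted p = 0.0604, edgeR) and Tbr1 (adjusted p = 0.0669, edgeR) missed the threshold there, and Med13l passed at 0.0277. The number called in RNA was 2, and 1 to 2 when single libraries were left out. It was 1 with limma on log2(TPM + 1), 1 with limma on log2(TPM + 0.1), 1 with the replicate block and 1 with the library covariate, Med13l missing each time (adjusted p = 0.0764, 0.0761, 0.0994 and 0.0533). For footprints per RNA it was 0 throughout, the replicate block included, where the block stood for the lysate. Counts over all genes moved more. The replicate block left 429 higher and 875 lower in footprints, against 1177 and 1500, and 73 and 131 in RNA, against 293 and 385. Leaving out single libraries gave 719 to 1086 higher in footprints (754 without KO library 3 and 719 without WT library 4), and 94 to 352 higher and 122 to 520 lower in RNA. RNA calls numbered 168 higher and 244 lower with limma on log2(TPM + 1), 174 higher with log2(TPM + 0.1), 151 and 211 with the library covariate and 576 higher in 1 fit over all libraries. For footprints per RNA, 2 genes were higher and 3 lower, against 52 and 38 with DESeq2, 39 and 31 or 40 and 30 with limma, 13 and 9 with the length trend removed, and 1 to 57 and 1 to 11 without single lysates. The cause was not tested.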

Other observations

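For 9 of the regulators, the gene outside the group with the most similar footprint pattern over the 7 footprint libraries (Pearson correlation of log2 TPM, the best of all genes, given as a description) was Mlst8 for Mef2c (0.994), Jup for Tbr1 (0.992), Rbl2 for Med13l (0.995), Aatf for Tcf4 (0.991), Tbc1d24 for Bcl11a (0.987), Adck1 for Adnp (0.984), Herc2 for Myt1l (0.975), Amotl2 for Foxp1 (0.980) and Tssk6 for Auts2 (0.989). Every gene is compared over the same libraries, which differ in genotype and depth. The best of many genes over 7 points is high for any gene.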
